A study of Mus musculus with 20 samples.

Results

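The cytoplasmic ribosomal protein genes of the mouse and their copies were followed through early spermatogenesis. They were taken as every gene of the deposited RNA count table whose symbol begins with Rpl or Rps, with or without a further p, and goes on with a digit. Rps6k kinases and the 6 symbols marked -ps as pseudogenes were left out. The rule found 85 of 23366 genes. Of these, 43 encode proteins of the large subunit, 30 encode proteins of the small subunit and 3 are the stalk proteins Rplp0, Rplp1 and Rplp2. A further 8 are paralogues, namely Rpl10l, Rpl39l, Rps4y2, Rpl36al, Rpl22l1, Rpl7l1, Rpl3l and Rps27l. The last is Rps19bp1, which matched by its symbol but encodes a binding partner of Rps19 and is no ribosomal protein. Rpsa and Fau, which also encode ribosomal proteins, fall outside the rule.

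RNA was sequenced from wild-type C57Bl/6J mice at 5 stages with 2 biological replicates each. Day 1, day 3 and day 7 testis were whole testes taken on those days after birth. Leptotene/zygotene and pachytene spermatocytes were purified from adults aged 70 to 80 days with STA-PUT, a sedimentation at unit gravity that parts cells by size; the submitters judged both fractions about 90% pure or more under the microscope. Whole testes at these ages hold Sertoli, Leydig, peritubular and endothelial cells beside the germ cells, so any step into spermatocytes sets a purified fraction from adults against a mixed young tissue.

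A ribosome carries a single copy of most of its proteins, and dividing cells make all of them at similar rates. In male meiosis the X chromosome is silenced at pachytene, and several X-linked housekeeping genes have an autosomal copy, often a retrogene, that is active in germ cells. Rpl10l, a retrogene of the X-linked Rpl10, is known to be needed for meiosis in male mice. Rpl39l, a copy of the X-linked Rpl39, is known as a component of testis ribosomes near the exit tunnel for the new protein chain.

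Counts on genes ran from 3597360 to 22181395 per library, and 71 of the 85 genes passed the filter on low counts that left 16872 genes in all. The other 14 were 11 of the large and 3 of the small subunit. Rpl28 and Rps28 had 0 counts in all 10 libraries, Rpl10 had 0 or 1, and the highest count of any of the 14 was 24, for Rpl12 in a day 3 library. Ribosomal protein genes have many near-identical copies in the genome, so levels of single genes are uncertain; how reads shared with such copies were counted was not tested. The plot of tested genes by library shows how far they were apart within any library.

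**Figure D1:**
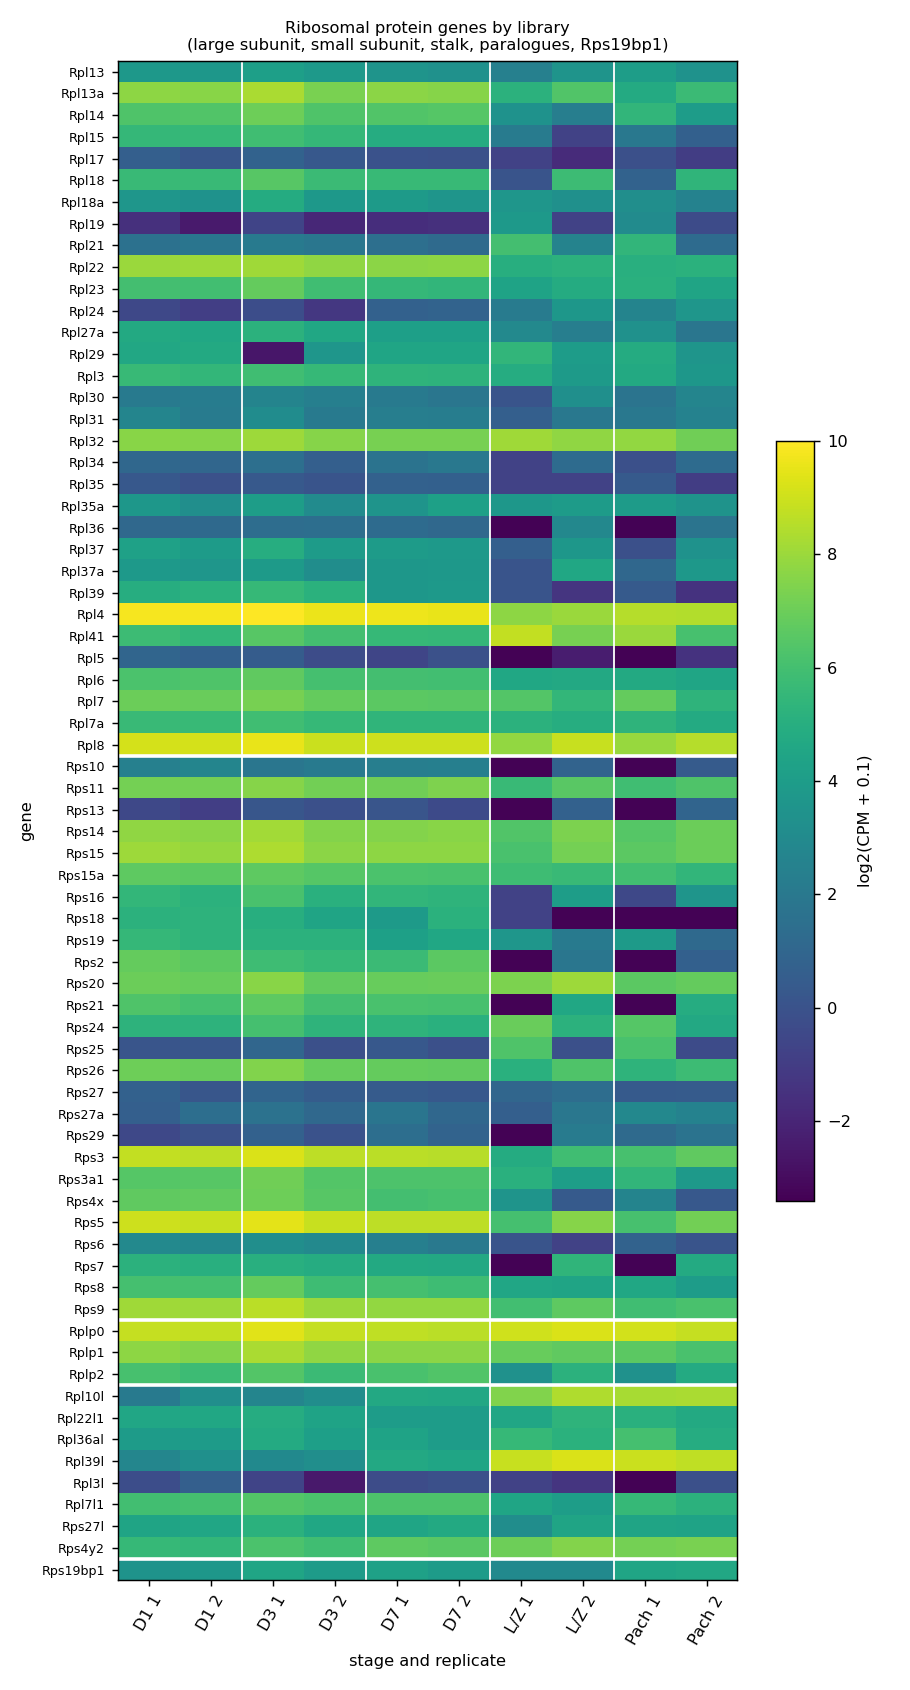
Level of the tested genes reported here (rows) in the 10 libraries (columns), as log2(CPM + 0.1), with white lines between large subunit, small subunit, stalk proteins, paralogues and Rps19bp1. Rpl10l and Rpl39l, among the paralogues, brighten in the spermatocyte columns, and single genes such as Rps7 and Rps21 differ sharply between replicate 1 and replicate 2 of both spermatocyte stages.

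The spermatocyte libraries numbered 1 stood apart from those numbered 2 in the same genes at both stages. Across the 71 genes, the log2 difference between replicates in pachytene followed that in leptotene/zygotene with a Pearson correlation of 0.94; both pairs share the library number, and the value is a description. Across all 16872 genes tested this correlation was 0.64. The other pairs of stages gave correlations of -0.19 to 0.17 across the 71 genes and of -0.108 to 0.018 across all genes. Replicates differed by more than 4-fold in 18 of the 71 genes in leptotene/zygotene (25.4%, against 8.43% of all genes tested) and in 17 in pachytene (23.9%, against 4.84%), but in at most 1 at any testis stage. Rps7 had 0 counts in both libraries numbered 1, but 406 in leptotene/zygotene and 199 in pachytene replicate 2, and Rps21 had 0 in both but 240 and 215. Among all 23366 genes, 5 had 0 counts in both spermatocyte libraries of a number and at least 100 in both of the other, and both of these were among them. Reads not aligned made up 39.2% and 42.1% of the leptotene/zygotene and pachytene libraries numbered 1, against 13.3% to 19.9% in the 8 others, and their part in these differences was not tested. Most values of named genes in spermatocytes are therefore given by library, and counts of members and lists also with either pair of libraries left out. CPM here are taken over a library's gene counts times its TMM factor, a scaling that adjusts for differences in composition.

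**Figure D2:**
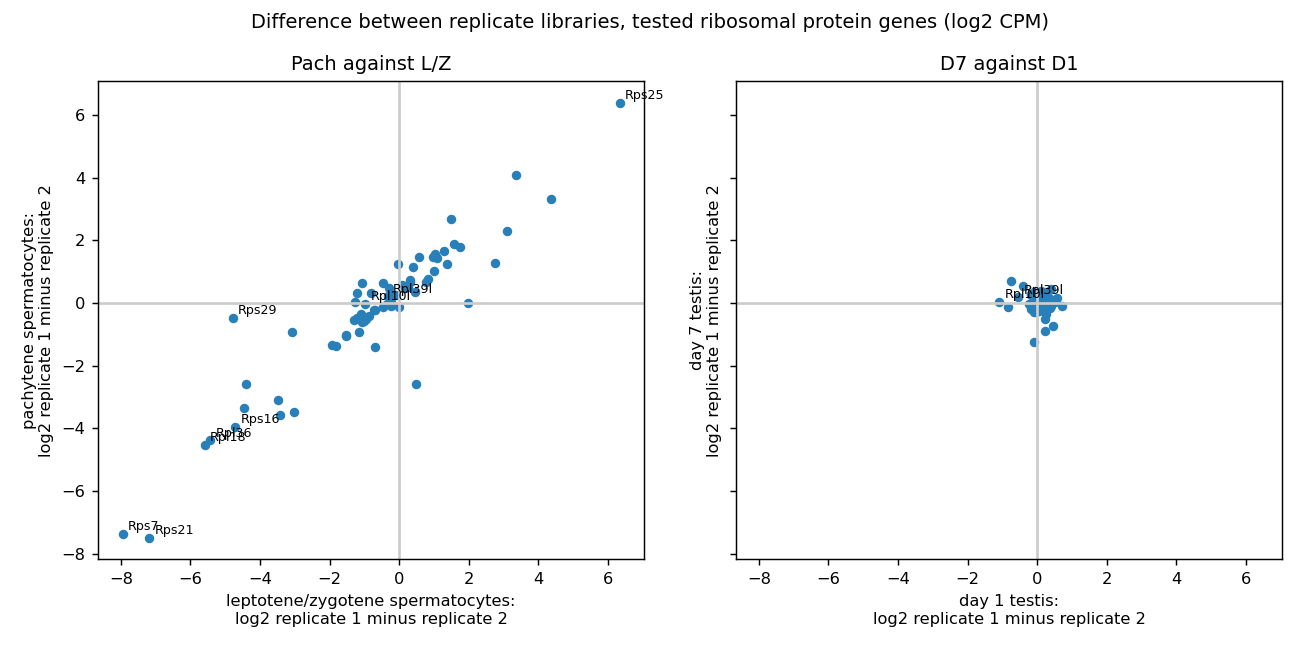
Log2 CPM of replicate 1 minus replicate 2 for the tested genes reported here, in pachytene against leptotene/zygotene (left) and in day 7 against day 1 testis (right), on the same axes. In spermatocytes the genes spread along the diagonal, with Rps7 and Rps21 at the low end, whereas Rpl10l and Rpl39l lie near the centre and the testis points stay close to 0.

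Fraction markers were looked at next. The 7 Sertoli cell markers summed to 7.11 to 89.5 CPM in the spermatocyte libraries, against 1508 to 2148 in the testis libraries, and all 7 fell in both spermatocyte stages; Amh had 0 to 1.38 CPM there. The 8 spermatid markers, which include the protamine genes Prm1 and Prm2, summed to 77710 and 76070 CPM in leptotene/zygotene and to 10260 and 6230 in pachytene, against at most 37.1 in testis. They made up 4.44% and 3.70% of gene counts in leptotene/zygotene, a stage that precedes spermatids. All 8 were called higher there than in day 7 testis, and their part in the results below was not tested. The 6 pachytene markers summed to 12710 to 18190 CPM in the spermatocyte libraries, against 31.4 to 53.1 CPM in testis, and all 6 were called higher in both spermatocyte stages than at day 7. The 6 markers of early meiosis did not move together. In leptotene/zygotene 2 were called higher and 1 lower than at day 7 (median log2 change 0.96): Hormad1 had 22.4 and 14.6 CPM there, against 3.92 and 4.18 CPM at day 7, whereas Stra8 had 7.78 and 6.61 CPM, against 52.1 and 37.6 CPM. In pachytene 2 were called higher than in leptotene/zygotene and 0 lower, and 3 of 6 had a positive change (median 0.22). Sycp3 had 126 and 211 CPM in pachytene, against 39.9 and 60.3 CPM in leptotene/zygotene, and Dmc1 had 5.29 and 1.79 CPM, against 9.73 and 4.91 CPM.

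Most ribosomal protein messages of mammals begin with a run of pyrimidines at their 5′ end, the TOP motif, through which their translation is tied to growth signals. RefSeq start regions (GRCm38.p6) were matched by symbol for 64 of the 85 genes and searched, on the gene's strand, for runs of at least 8 C or T letters in the 100 bases from 50 before to 50 after the annotated start. Such a run was found in 51 of 64 members (79.7%), against 9650 of 27025 genes (35.7%). By role it was found in 46 of 56 ribosomal proteins other than paralogues (82.1%) and in 5 of 7 paralogues (71.4%). The stretches around the longest run are shown for Rpl39l, Rpl10l and Rpl36al, the copies followed below, and their X-linked parents, 5′ to 3′ on the gene's strand, with the longest pyrimidine run in capitals.
Rpl39l: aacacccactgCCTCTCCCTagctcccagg
Rpl39: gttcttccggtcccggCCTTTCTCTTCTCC
Rpl10l: tcagtctctatgaTTCCCgcaaggcttgat
Rpl10: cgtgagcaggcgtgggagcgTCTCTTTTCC
Rpl36al: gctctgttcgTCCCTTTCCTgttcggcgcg
Rpl36a: cggctctagCCTCTCTCTTTCCgagctgct
These lie on chr16:10170191-10170220 (plus strand, Rpl39l), chrX:37085173-37085202 (minus, Rpl39), chr12:66284429-66284458 (minus, Rpl10l), chrX:74270836-74270865 (plus, Rpl10), chr12:69184020-69184049 (minus, Rpl36al) and chrX:134585672-134585701 (plus, Rpl36a). The longest run was 9 letters in Rpl39l and 14 in Rpl39, 5 in Rpl10l and 10 in Rpl10, and 10 in Rpl36al and 13 in Rpl36a, so in each pair the copy had the shorter run in this window. The runs of Rpl39 and Rpl10 began at bases 37 and 41 from the annotated start and reached the window's edge, so their lengths are lower limits. Those of Rpl36al and Rpl36a began at bases 29 and 28, and those of Rpl39l and Rpl10l before the start, at -26 and -44. None of these runs began at the annotated start. A run is a match of letters near an annotated start, and no start site was measured here.

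The balance of Rpl39l and Rpl39 counts had shifted toward Rpl39l by day 7, within testis, and lay further on that side in spermatocytes. Rpl39l had 6.66 and 9.75 CPM on day 1, 7.69 and 9.28 on day 3 and 25.4 and 22.4 on day 7, then 477 and 600.0 among leptotene/zygotene and 490.4 and 422 among pachytene spermatocytes. Rpl39 had 31.1 and 35.0 CPM on day 1, 47.5 and 35.0 on day 3 and 12.7 and 14.4 on day 7, then 0.973 and 0.301 among leptotene/zygotene and 1.22 and 0.275 among pachytene spermatocytes. For both genes all 4 spermatocyte libraries lay on one side of all 6 testis libraries. In counts, Rpl39 was at 2 and 3 reads in leptotene/zygotene and at 6 and 2 in pachytene, near the limit of detection.

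The share of the pair's counts that fell on Rpl39l was 17.6% and 21.8% at day 1, 13.9% and 21.0% at day 3, and 66.7% and 60.8% at day 7. Spermatocyte libraries had 99.796% and 99.95% at leptotene/zygotene, then 99.752% and 99.935% at pachytene. The widest 95% Wilson interval of these shares was 13.8% to 22.3%, in day 1 replicate 1, and covers counting error only. The log2 ratio of Rpl39l to Rpl39 counts was 9.54 ± 1.13 in spermatocytes (SD, n = 4) and -1.16 ± 1.56 in testis (SD, n = 6), a difference of 10.70, and the ratio was higher in 4 of 4 spermatocyte libraries than in any testis library. An exact two-sided permutation test gave p = 0.00952, the smallest that 4 against 6 libraries allow, and 0.00952 adjusted over the 2 pairs tested. The ratio is not corrected for transcript length, which shifts it alike in every library. In testis the 2 day 7 ratios, 1.00 and 0.63, were the highest of the 6, above -2.62 to -1.84 on days 1 and 3. The shift of the ratio within testis was not tested.

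Tested gene by gene across the whole table with edgeR's quasi-likelihood test, Rpl39l was already higher at day 7 than at day 3, by 1.50 ± 0.27 on the log2 scale (SE, adjusted p = 0.035). The call was lost when any 1 of the 6 testis libraries was left out (adjusted p = 0.068 to 0.39, change 1.25 to 1.45). It was higher again in leptotene/zygotene than at day 7, by 4.50 ± 0.30 (adjusted p = 1.1e-06), and in pachytene than at day 7, by 4.26 ± 0.30 (adjusted p = 1.8e-06). Pachytene and leptotene/zygotene differed by -0.24 ± 0.26 (adjusted p = 0.57), within the spread between replicates. Rpl39 fell by 4.92 in leptotene/zygotene (SE 0.61, adjusted p = 5.0e-05) and by 4.30 in pachytene (SE 0.54, adjusted p = 6.0e-05) relative to day 7. Between day 3 and day 7 testis Rpl39 was not called, nor was any of the 32 large subunit genes tested. With the spermatocyte libraries numbered 1 left out, Rpl39l was higher by 4.75 and 4.21 at the 2 stages, and with those numbered 2 left out by 4.37 and 4.43. In bulk RNA, fewer cells of a type and less RNA per cell cannot be told apart.

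Rpl10l rose as well, but its parent could not be followed in these counts. Rpl10l had 4.19 and 9.15 CPM on day 1, 6.29 and 8.95 on day 3 and 25.8 and 24.9 on day 7, then 173 and 342 among leptotene/zygotene and 306 and 313 among pachytene spermatocytes. All 4 spermatocyte libraries were above all testis libraries, and both day 7 libraries were above those of days 1 and 3. Rpl10 had 3 counts in all 10 libraries together, 1 each in day 1 replicate 2 and the day 7 replicates. A gene known as broadly expressed thus had almost no counted reads in testis either, and a fall in spermatocytes could not be detected from these counts. Why so few reads were counted was not tested.

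Rpl10l was higher in leptotene/zygotene than at day 7 by 3.35 ± 0.43 on the log2 scale (SE, edgeR adjusted p = 5.8e-05). In pachytene it was higher than at day 7 by 3.61 ± 0.43 (edgeR adjusted p = 4.3e-05). It differed between pachytene and leptotene/zygotene by 0.26 ± 0.39 (edgeR adjusted p = 0.70). From day 3 to day 7 its change of 1.74 ± 0.41 did not pass the threshold (edgeR adjusted p = 0.075). The log2 ratio of Rpl10l to Rpl10 was 11.48 ± 1.42 in spermatocytes (SD, n = 4) and 7.50 ± 1.09 in testis (SD, n = 6), a difference of 3.98 with an exact two-sided permutation p = 0.00952, again the smallest possible. With the parent at 0 or 1 count this ratio follows the Rpl10l count and the pseudocount of 0.5, and also the depth of the library.

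**Figure D3:**
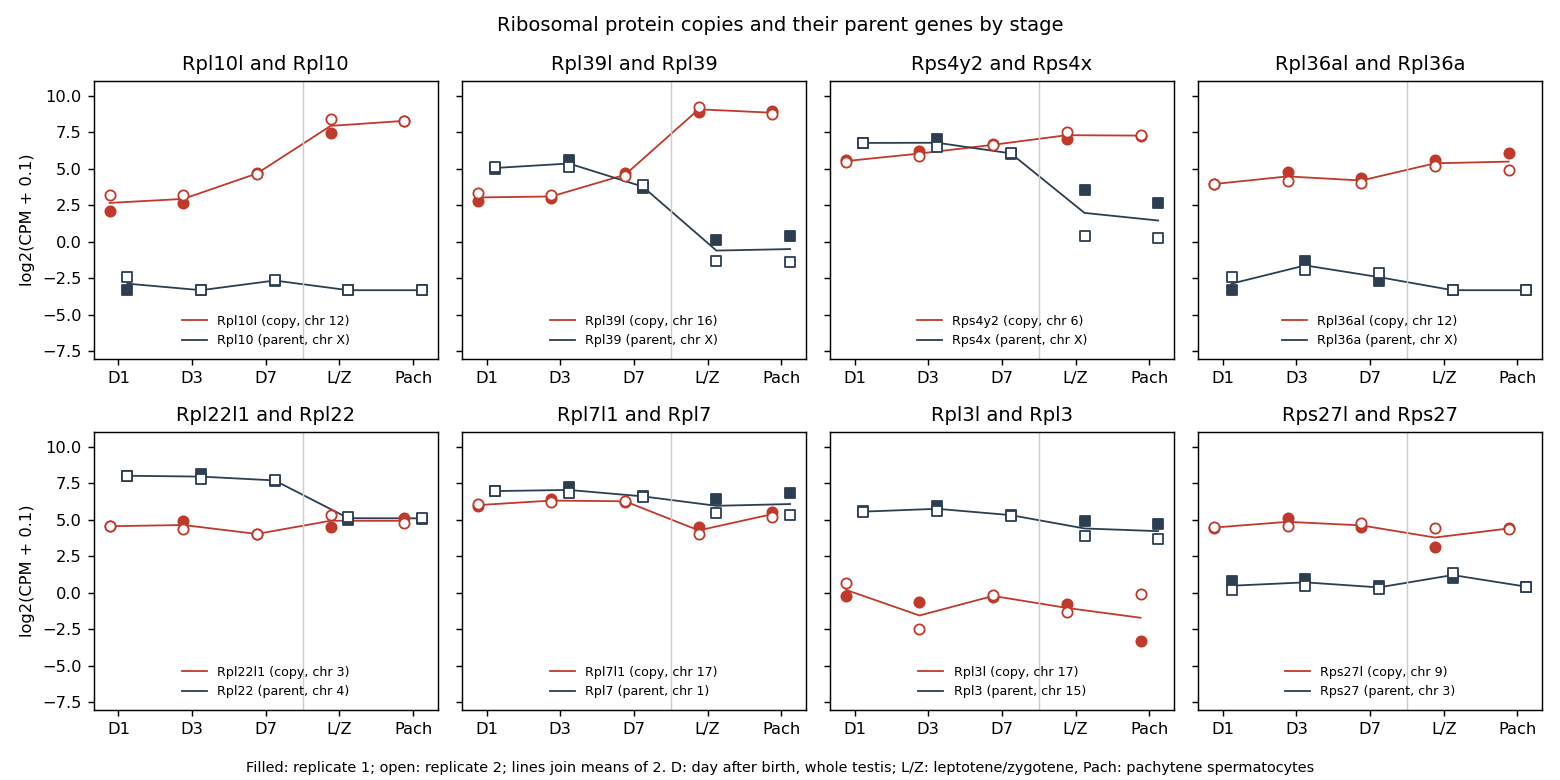
Levels as log2(CPM + 0.1) of 8 copies (red circles) and their parent genes (dark squares) at each stage, with filled symbols for replicate 1, open symbols for replicate 2 and lines through the means of 2 libraries. The lines of Rpl39l and Rpl39, and of Rps4y2 and Rps4x, cross between day 3 and day 7, Rpl10 and Rpl36a lie at the bottom throughout, and Rpl22 drops to the level of Rpl22l1.

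Of the other X-linked members, Rps4x fell and Rpl36a could not be read. Rps4x, a protein of the small subunit, had 11.7 and 1.20 CPM in leptotene/zygotene and 6.10 and 1.10 CPM in pachytene, against 64.1 and 68.0 CPM in day 7 testis. It fell by 3.78 in leptotene/zygotene (SE 0.90, edgeR adjusted p = 0.0032) and by 4.28 in pachytene (SE 0.88, edgeR adjusted p = 0.0014) relative to day 7. Day 1 and day 3 libraries held 90.6 to 132 CPM, so the groups did not overlap. Rpl36a had 0 counts in the 4 spermatocyte libraries and 0 to 9 in the testis libraries, which is too few for a test. All 4 X-linked members, Rpl10, Rpl36a, Rpl39 and Rps4x, have an autosomal copy among the 8 paralogues.

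Rps4y2, which RefSeq lists as the transcribed pseudogene Rps4l on chromosome 6, was called slightly higher in spermatocytes. It had 47.3 and 44.1 CPM on day 1, 73.1 and 58.6 on day 3 and 102 and 96.7 on day 7, then 133 and 185 among leptotene/zygotene and 148 and 160 among pachytene spermatocytes. It was higher than at day 7 by 0.68 ± 0.24 in leptotene/zygotene (SE, edgeR adjusted p = 0.026) and by 0.63 ± 0.24 in pachytene (edgeR adjusted p = 0.037). With plain library sizes in place of TMM factors these became -0.72 and -0.20, so the sign rests on the scaling. Its share of the pair's counts with Rps4x was 91.9% to 99.4% in the spermatocyte libraries, against 28.8% to 61.4% in testis. The log2 ratio of Rps4y2 to Rps4x averaged 5.59 ± 1.86 in spermatocytes (SD, n = 4) and -0.47 ± 0.85 in testis (SD, n = 6), with no overlap, given without a test.

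Rpl36al, an autosomal retrogene of Rpl36a, had 47.2 and 35.9 CPM in leptotene/zygotene and 66.5 and 29.9 CPM in pachytene, against 20.4 and 16.1 CPM in day 7 testis. It was higher by 1.17 ± 0.39 (SE, edgeR adjusted p = 0.020) and 1.39 ± 0.39 (edgeR adjusted p = 0.0085) at the 2 spermatocyte stages; with plain library sizes the first became -0.20. Day 3 replicate 1, at 27.3 CPM, came close to the lowest spermatocyte library.

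Among autosomal pairs, Rpl22 was called lower and Rpl22l1 higher in spermatocytes. Rpl22 is a dispensable large subunit protein in mice, and Rpl22l1 is known there to replace it and to be held down by it. Rpl22 had 31.6 and 37.0 CPM in leptotene/zygotene and 33.0 and 35.0 CPM in pachytene, against 201 and 211 CPM at day 7. It fell by 2.58 in leptotene/zygotene (SE 0.24, edgeR adjusted p = 6.6e-06) and by 2.60 in pachytene (SE 0.23, edgeR adjusted p = 7.1e-06) relative to day 7, with replicates close together. Rpl22l1 had 22.9 and 40.2 CPM in leptotene/zygotene and 33.8 and 27.0 in pachytene, against 16.1 and 16.2 at day 7. Its rises were 1.00 ± 0.32 (SE, edgeR adjusted p = 0.017) and 0.91 ± 0.32 (edgeR adjusted p = 0.026), and with plain library sizes the first became -0.42. The log2 ratio of Rpl22l1 to Rpl22 was -0.17 ± 0.29 in spermatocytes (SD, n = 4) and -3.48 ± 0.18 in testis (SD, n = 6), without overlap, given without a test.

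The remaining 3 paralogues did not rise in spermatocytes. Rpl7l1, known as an assembly factor of the large subunit related to Rpl7, had 22.4 and 16.3 CPM in leptotene/zygotene and 47.0 and 36.8 CPM in pachytene, against 75.5 and 77.3 CPM at day 7. It fell by 2.01 in leptotene/zygotene (SE 0.27, edgeR adjusted p = 7.7e-05) and by 0.87 in pachytene (SE 0.25, edgeR adjusted p = 0.010). Rps27l had 8.76 and 21.1 CPM in leptotene/zygotene and 21.2 and 20.8 CPM in pachytene, against 22.1 and 26.7 CPM at day 7. It had log2 changes of -0.63 (SE 0.38, edgeR adjusted p = 0.15) and -0.22 (SE 0.37, edgeR adjusted p = 0.61) relative to day 7. Rpl3l, known for its expression in heart and skeletal muscle, had 0 to 17 counts per library and was not called. The log2 ratios of Rpl7l1 to Rpl7, Rps27l to Rps27, Rpl3l to Rpl3 and Rpl36al to Rpl36a overlapped between spermatocyte and testis libraries.

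Ribosomal protein genes took a smaller share of all gene counts in spermatocytes. The 85 genes held 0.881% ± 0.007 of gene counts on day 1, 0.996% ± 0.299 on day 3 and 0.804% ± 0.0004 on day 7, then 0.236% ± 0.0003 among leptotene/zygotene and 0.318% ± 0.020 among pachytene spermatocytes (SD, n = 2 each). The 4 spermatocyte libraries, at 0.236% to 0.332%, lay below the 6 testis libraries, at 0.784% to 1.21%. A share of this kind falls when other genes take up counts. Without the 100 most abundant genes the stage means were 0.305% in leptotene/zygotene and 0.380% in pachytene, against 0.697% and 0.704% in the day 7 libraries. On the TMM scale the 76 ribosomal proteins other than paralogues summed to 3234 and 3614 CPM in leptotene/zygotene and to 3205 and 2855 CPM in pachytene, against 5566 and 5538 CPM at day 7. The 8 paralogues summed to 884 and 1241 CPM in leptotene/zygotene and 1112 and 1010 CPM in pachytene, against 288 and 281 CPM at day 7.

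Within the family, Rpl10l and Rpl39l together held 0.228% ± 0.093 of the counts on day 1, 0.230% ± 0.103 on day 3 and 0.841% ± 0.043 on day 7, then 17.6% ± 2.57 among leptotene/zygotene and 18.6% ± 0.389 among pachytene spermatocytes (SD, n = 2 each). Each spermatocyte library lay between 15.8% and 19.4%, so the libraries numbered 1 and 2 gave similar shares.

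**Figure D4:**
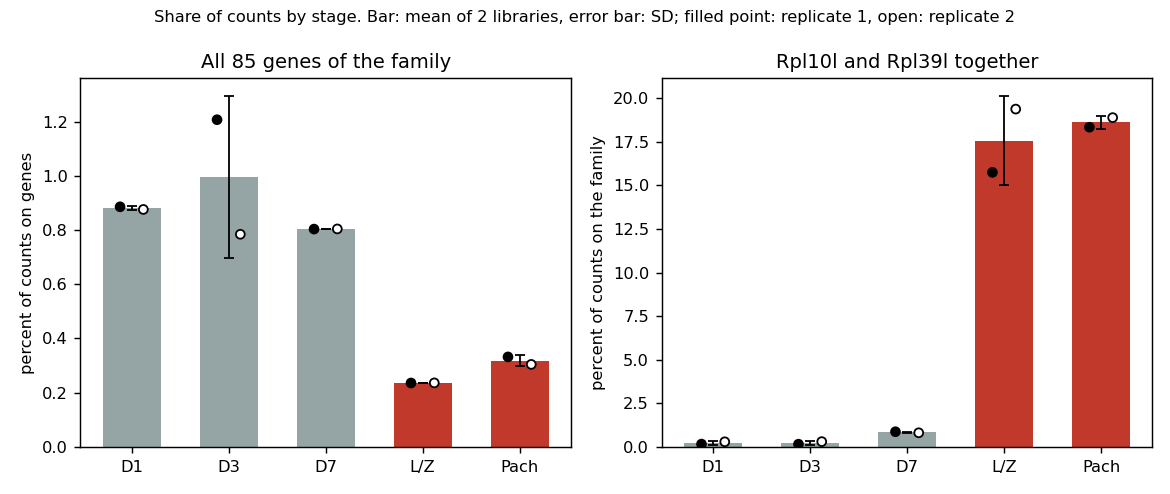
Left, percent of all counts on genes that fell on the 85 ribosomal protein genes; right, percent of the family's counts that fell on Rpl10l and Rpl39l together. Bars are means of 2 libraries with SD, points are libraries, testis stages are grey and spermatocyte stages red; the left bars drop and the right bars rise at leptotene/zygotene.

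Within testis, members were called in about the share of all genes. Between day 3 and day 1 testis no member was called by edgeR, 1 of 71 had an unadjusted p under 0.05, and 0% of all genes tested were called (0 of 16872, with 1097 at an unadjusted p under 0.05); DESeq2 called 0 members. The median log2 change of the 71 members was 0.21, and that of all genes -0.004. Between day 7 and day 3, 1 member was called, Rpl39l, and 1.49% of all genes were (0.931% higher and 0.563% lower); the medians were -0.38 for the members and -0.02 for all genes. With any 1 testis library left out, 0 or 1 member was called, and never Rpl39l. A fit on the 6 testis libraries alone called 10 of 69 members in this step (14.5%, against 14% of all genes), 3 higher and 7 lower. Rpl29 stood out at day 3, with 2 counts in replicate 1 and 152 in replicate 2, against 202 and 306 at day 1.

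The step from day 7 testis to leptotene/zygotene spermatocytes changed 39 of the 71 members by edgeR, 12 higher and 27 lower, where 78.5% of all genes were called (36.5% higher and 42% lower). The median of the members' log2 changes was -0.80, against -0.31 for all genes. Of the large subunit 5 of 32 rose and 10 fell, of the small subunit 2 of 27 rose and 13 fell, and of the stalk proteins 2 of 3 fell. Of the 8 paralogues 5 rose and 1 fell, but with upper-quartile factors 2 rose and 2 fell (median 0.46). With plain library sizes 2 paralogues, Rpl10l and Rpl39l, rose and 3 fell, and the median of the paralogues turned to -0.57. No other member, Rpl41, Rpl32 and Rpl21 included, was called higher with that scaling. With the spermatocyte libraries numbered 1 left out, 7 of the large subunit rose and 11 fell, 2 of 26 of the small subunit rose and 14 fell, and 5 paralogues rose and 1 fell. With those numbered 2 left out, it was 4 and 16, 3 of 27 and 18, and 3 and 2. Without day 7 replicate 2, 25 of 72 members were called (34.7%, against 69.4% of all genes). The split rests on scaling: it was 14 higher and 21 lower with median-ratio factors, 7 and 36 with upper-quartile factors and 2 and 48 with plain library sizes, while the median of all genes was 0.01, -0.70 and -1.71. With the same 3 scalings the medians were -0.41, -1.15 and -2.14 for the large subunit and -0.72, -1.43 and -2.45 for the small subunit.

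**Figure D5:**
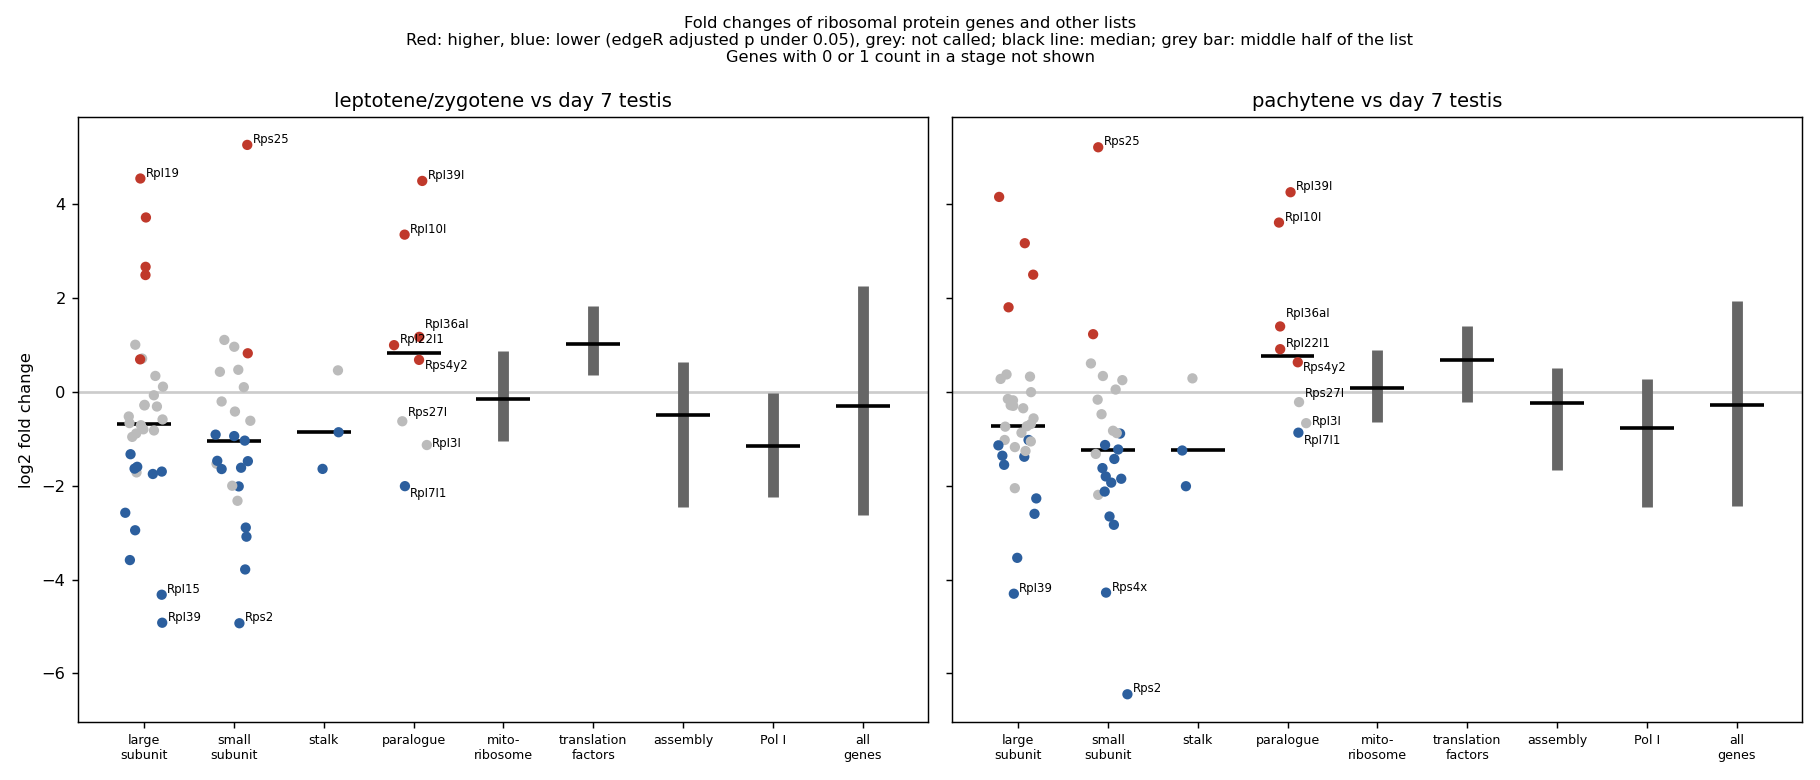
Log2 fold change relative to day 7 testis in leptotene/zygotene (left) and pachytene (right), for each tested gene of the large subunit, small subunit, stalk and paralogues, and as median and middle 50% for 4 other lists and all genes; genes with 0 or 1 count in a stage are not drawn. The subunit medians lie below 0 and that of the paralogues above it (below 0 with plain library sizes), with Rpl39l and Rpl10l at the top of the paralogues; 5 genes of the paralogue column are red and 1 is blue in both panels.

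The 5 largest falls against day 7, at both spermatocyte stages, were those of Rps18, Rps2, Rpl39, Rpl15 and Rps4x. Rps18 had 1 and 0 counts in leptotene/zygotene and 0 and 0 in pachytene, against 269 and 570 in day 7 testis. Its ratio to day 7 was 0.0034 in leptotene/zygotene (exact 95% interval 8.6e-05 to 0.019) and it was at least 99-fold lower in pachytene, taken at 3 counts over the group. Rps2 had 0 and 3.51 CPM in leptotene/zygotene and 0 and 1.51 CPM in pachytene, against 53.5 and 99.1 CPM at day 7. Relative to day 7, Rps2 fell by 4.93 in leptotene/zygotene (SE 0.79, edgeR adjusted p = 0.00027) and fell by 6.44 in pachytene (SE 0.88, edgeR adjusted p = 0.00011). Rpl15 had 4.38 and 0.501 CPM in leptotene/zygotene and 3.87 and 1.51 CPM in pachytene, against 30.07 and 29.98 CPM at day 7. It fell by 4.32 in leptotene/zygotene (SE 0.73, edgeR adjusted p = 0.00038) and by 3.54 in pachytene (SE 0.63, edgeR adjusted p = 0.00061). For Rps18, Rps2 and Rpl15 all 4 spermatocyte libraries lay below all 6 testis libraries. Rpl14 fell by 3.58 in leptotene/zygotene (SE 0.55, edgeR adjusted p = 0.00020), with 10.7 and 4.91 CPM there against 82.7 and 87.1 CPM at day 7.

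The 3 largest rises outside the paralogues, those of Rps25, Rpl19 and Rpl21, were largest in the libraries numbered 1. Rps25 had 77.8 and 0.802 CPM in leptotene/zygotene and 71.6 and 0.688 CPM in pachytene, against 1.10 and 0.799 CPM at day 7, so replicate 2 of both stages was at the testis level. It was called at 5.26 (SE 1.99, edgeR adjusted p = 0.034) and 5.21 (SE 1.97, edgeR adjusted p = 0.035); without the libraries numbered 1 the values were -0.15 and -0.40. Rpl21 had 62.7 and 5.91 CPM in leptotene/zygotene and 42.7 and 2.34 CPM in pachytene, against 2.70 and 2.21 CPM at day 7. It was called at 3.72 and 3.17, with edgeR adjusted p of 0.020 and 0.037, and without those libraries it was at 1.36 and -0.002. Rpl19 had 13.6 and 0.501 CPM in leptotene/zygotene and 8.34 and 0.688 CPM in pachytene, against 0.221 and 0.246 CPM at day 7, and did not pass the filter without the libraries numbered 1.

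By contrast, Rpl41, a very short large subunit protein, was higher by 2.67 (SE 0.63, edgeR adjusted p = 0.0032) and 1.80 (SE 0.61, edgeR adjusted p = 0.022). Rpl41 lost the first call with plain library sizes, where 0 of 32 large subunit genes were called higher in leptotene/zygotene. It had 444 and 150.1 CPM in leptotene/zygotene and 256 and 69.2 CPM in pachytene, against 47.9 and 45.2 CPM at day 7, and was called with either the libraries numbered 1 or those numbered 2 left out.

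The same call was made with all 4 spermatocyte libraries, with those numbered 1 alone and with those numbered 2 alone for 29 of the 71 members at leptotene/zygotene (40.8%, against 67.4% of all genes), 6 higher and 23 lower. The 6 were Rpl10l, Rpl39l, Rpl36al, Rpl41, Rpl32 and Rpl21. The libraries numbered 1 and those numbered 2 gave opposite calls for 4 members, Rpl30, Rpl36, Rpl37a and Rps7 (5.63%, against 0.504% of all genes). At pachytene it was 30 members (42.3%, against 68.2%), 7 higher and 23 lower, with no opposite calls; the 7 were Rpl10l, Rpl39l, Rpl36al, Rpl22l1, Rps4y2, Rpl24 and Rpl41.

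Between pachytene and leptotene/zygotene 3 members were called, all higher in pachytene, where 22.2% of all genes were called and 9.03% were higher. Rpl14 was higher by 2.03 ± 0.54 (SE, edgeR adjusted p = 0.026), with 42.5 and 15.7 CPM in pachytene against 10.7 and 4.91 CPM in leptotene/zygotene. Rpl7l1 was higher by 1.14 ± 0.27 (SE, edgeR adjusted p = 0.015). Rps19bp1 was higher by 1.59 ± 0.31 (SE, edgeR adjusted p = 0.0074), with 22.6 and 24.5 CPM in pachytene against 7.78 and 7.82 CPM in leptotene/zygotene. A fit on these 2 stages alone called 0 of 59 members and 6.83% of all genes. With a replicate block within the spermatocyte stages, 4 of 71 members were higher in pachytene and 3 lower, where 37.7% of all genes were called. That all members called were higher thus held in the main fit but not with this block. With 1 library left out, 1 member was called without pachytene replicate 1 (14.1% of all genes) and 5 without leptotene/zygotene replicate 1 (29.3%), as without day 3 replicate 1 (22.1%) or 2 (22%).

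From day 7 testis to pachytene 37 members were called, 11 higher and 26 lower, where 75.2% of all genes were called (35.1% higher and 40.1% lower); the medians were -0.83 for members and -0.27 for all genes. Of the small subunit 2 of 27 rose and 14 fell, of the large subunit 4 of 32 rose and 9 fell, and 5 of 8 paralogues rose and 1 fell. The split was 4 higher and 32 lower with upper-quartile factors and 3 and 40 with plain library sizes. All genes moved down too: 5494 of 16872 were higher and 7349 lower with upper-quartile factors, and 4521 and 8810 with plain library sizes. The medians were -1.09 and -1.65 for members, against -0.53 and -1.10 for all genes. With median-ratio factors 5 paralogues rose and 0 fell, and with upper-quartile factors 3 rose and 1 fell. With plain library sizes 2 paralogues rose and 2 fell. With the spermatocyte libraries numbered 1 left out, 3 of the large subunit rose and 12 fell, 0 of 26 of the small subunit rose and 16 fell, and 5 paralogues rose and 1 fell. With those numbered 2 left out, it was 6 and 14, 4 of 27 and 18, and again 5 and 1. Without day 7 replicate 1, 24 of 72 members were called (33.3%, against 64.1% of all genes), and without replicate 2 it was 20 (27.8%, against 64.3%). Both comparisons with day 7 share its libraries.

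The rest of the translation machinery did not move as a block. Mitochondrial ribosomal proteins are encoded in the nucleus, and 75 were tested. In leptotene/zygotene 18 rose (24%) and 24 fell (32%) relative to day 7, against 36.5% and 42% of all genes. Their median log2 change was -0.15, against -0.31 for all genes. In pachytene 23 rose (30.7%) and 13 fell (17.3%), against 35.1% and 40.1% of all genes, with medians of 0.08 and -0.27. Which direction prevailed in leptotene/zygotene turned with the libraries: 34 rose and 20 fell without those numbered 1, and 12 rose and 31 fell without those numbered 2; in pachytene it was 28 and 12, and 27 and 18. It turned with the scaling too: 29 rose and 18 fell in leptotene/zygotene with median-ratio factors, and 10 rose and 36 fell in pachytene with plain library sizes. All genes moved with the scaling as well. The medians of the list were then 0.16 and -0.75, against 0.01 and -1.10 for all genes. Mrpl51 had 120.6 and 116 CPM in leptotene/zygotene, against 16.6 and 16.2 CPM at day 7, and rose by 2.85 ± 0.29 (SE, edgeR adjusted p = 1.3e-05). Mrps24 had 3.41 and 2.10 CPM in leptotene/zygotene, against 20.1 and 21.1 CPM at day 7, and fell by 3.04 (SE 0.37, edgeR adjusted p = 4.2e-05).

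Of 36 tested translation factors, 18 rose (50%) and 4 fell (11.1%) in leptotene/zygotene, against 36.5% and 42% of all genes. In pachytene 14 rose (38.9%) and 6 fell (16.7%), against 35.1% and 40.1% of all genes. The medians were 1.02 and 0.68, against -0.31 and -0.27 for all genes. Without the libraries numbered 1, 27 of 37 rose and 4 fell in leptotene/zygotene and 20 rose and 7 fell in pachytene; without those numbered 2 it was 19 and 8, and 16 and 7. With plain library sizes 8 rose and 15 fell in leptotene/zygotene, and 10 rose and 13 fell in pachytene. Of all 16872 genes, 4183 then rose and 9928 fell in leptotene/zygotene, and 4521 rose and 8810 fell in pachytene. The medians of the list were then -0.40 and -0.15, against -1.71 and -1.10 for all genes. Pabpc1, the main cytoplasmic poly(A)-binding protein, had 2439 and 3679 CPM in leptotene/zygotene, against 348 and 358 CPM at day 7. Pabpc2, its testis retrogene, had 3688 and 3356 CPM in leptotene/zygotene and no counts at day 7, and was at least 39130-fold higher in leptotene/zygotene, taken at 3 counts over the group. Eef1d, an exchange factor of elongation, had 1488 and 2053 CPM in leptotene/zygotene, against 104 and 96.7 CPM at day 7. With 292 and 320.5 CPM in pachytene it was lower in pachytene than in leptotene/zygotene by 2.53 on the log2 scale (SE 0.32, edgeR adjusted p = 0.0013). The X-linked Eif2s3x, a subunit of initiation factor eIF2, had 0 counts in leptotene/zygotene and 2 in pachytene, against 123 in day 7 testis.

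Of 52 tested genes that assemble ribosomes and process rRNA, 13 rose (25%) and 25 fell (48.1%) in leptotene/zygotene relative to day 7, against 36.5% and 42% of all genes, with medians of -0.50 for the list and -0.31 for all genes. In pachytene 11 rose (21.2%) and 23 fell (44.2%), against 35.1% and 40.1% of all genes, and the median of -0.24 was near the -0.27 of all genes. Without the libraries numbered 1, 17 rose and 23 fell in leptotene/zygotene and 14 rose and 23 fell in pachytene; without those numbered 2 it was 12 and 28, and 13 and 24. Between the spermatocyte stages, 10 were higher and 2 lower in pachytene (9 and 6 without the libraries numbered 1, 6 and 0 without those numbered 2). Nop56, a core protein of box C/D snoRNPs, had 2.43 and 3.01 CPM in leptotene/zygotene, against 57.6 and 61.2 CPM at day 7. The X-linked Dkc1, the pseudouridine synthase of H/ACA snoRNPs, had 2.43 and 1.40 CPM in leptotene/zygotene, against 46.4 and 47.2 CPM at day 7. Lyar, a nucleolar protein, had 1400.0 and 2261 CPM in leptotene/zygotene, against 49.3 and 40.7 CPM at day 7, and rose by 5.35 ± 0.38 (SE, edgeR adjusted p = 1.5e-06).

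RNA polymerase I and its regulators, which transcribe the ribosomal RNA genes, had 15 tested genes. In leptotene/zygotene 2 rose (13.3%) and 10 fell (66.7%), against 36.5% and 42% of all genes, with medians of -1.15 and -0.31. In pachytene 2 rose (13.3%) and 7 fell (46.7%), against 35.1% and 40.1% of all genes, with medians of -0.76 and -0.27. With median-ratio factors the medians were -0.83, against 0.01 for all genes, and -0.48, against 0.001. Without the libraries numbered 1, 4 rose and 10 fell in leptotene/zygotene and 5 rose and 8 fell in pachytene; without those numbered 2 the counts were as with all libraries. Ubtf, the factor that binds active ribosomal RNA genes, had 14.6 and 7.11 CPM in leptotene/zygotene and 13.4 and 11.4 CPM in pachytene, against 219 and 231 CPM at day 7. Mycn had 1.95 and 0.902 CPM in leptotene/zygotene, against 89.9 and 91.4 CPM at day 7.

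Other X-linked genes with an autosomal testis copy were set beside Rpl39 and Rpl39l. The X-linked Pdha1, Rbmx, Cetn2, Pgk1 and Utp14a were all called lower in both spermatocyte stages than at day 7, and the copies Pdha2, Rbmxl2, Cetn1, Pgk2 and Utp14b were all called higher. The exceptions under other scalings, both in leptotene/zygotene, were Utp14a with median-ratio factors (-0.41) and Rbmxl2 with plain library sizes (0.61), which kept their direction without a call. Of all genes, 42% were called lower and 36.5% higher in leptotene/zygotene, and 40.1% and 35.1% in pachytene. These pairs were picked by name, and X-linked genes as a whole were not tested. Pdha1, of the pyruvate dehydrogenase complex, had 7.78 and 0.902 CPM in leptotene/zygotene against 49.7 and 49.9 CPM at day 7. Its copy Pdha2 had 344 and 295 CPM in leptotene/zygotene against 8.28 and 10.4 CPM at day 7, and like Rpl39l was already higher at day 7 than at day 3, by 2.97 ± 0.32 (SE, edgeR adjusted p = 0.0092).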

How the data were processed

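The gene counts were analysed as the authors deposited them, 1 table of whole-number counts with a column for each RNA library. The submitters' processing notes name the aligners Bowtie 0.12.7 and BWA 0.7.8, the counter HTSeq 0.6.1, the package edgeR 3.6.8 and the build mm9. The table carries HTSeq's summary categories, but which aligner came before it is not given in the sources used here. Whether strand was used is not given either, so overlapping and antisense genes cannot be told apart. The 5 HTSeq summary categories held 44.7% to 64.5% of a library and stayed out of library sizes and tests. Among these, reads of too low mapping quality made up 10.8% to 14.7% of the testis libraries, most in day 3 replicate 1. In the spermatocyte libraries they made up 4.68% to 8.63%. Their part in the levels of the ribosomal protein genes was not tested. The small RNA table was not used here. The labels call the replicates biological without saying how they were separated, so p-values measure the spread between these libraries.

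Genes were kept by filterByExpr (minimum count 10), scaled by TMM and fitted over all 10 RNA libraries with edgeR 4.0.16 (R 4.3.3), with 5 residual degrees of freedom and the quasi-likelihood test; p-values were adjusted over 16872 genes after Benjamini and Hochberg, with a threshold of 0.05. A standard error is the size of the log2 change divided by the root of F. Levels in CPM rest on library sizes times TMM factors, and 3 counts are 0.0999 to 1.46 CPM per library. Log2 ratios of a copy to its parent used a pseudocount of 0.5 and an exact permutation test (scipy 1.17.1). The fit was tested on simulated data. Replicates of each stage differed by more than sampling noise (chi-square per degree of freedom 4.504 to 64.5).

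The members, lists and markers were chosen with earlier results of these data known. Named were Rpl10l, Rpl10, Rpl39l and Rpl39, all other paralogues with their parents, X-linked members, up to 5 rises and 5 falls per comparison among members past the test, and up to 4 per further list. Rpl14, Rpl24, Rpl29, Rpl30, Rpl32, Rpl36, Rpl37a, Rpl41, Rps7 and Rps21, where named outside this rule, were chosen after their values were seen. Counts over the 71 tested genes include 1 gene that is not reported here. Alternatives were other scalings, DESeq2 1.42.0, no filter, only the stages compared, a replicate block and each library left out; list counts under each scaling and without either pair of spermatocyte libraries, and 4 settings on the libraries that stood apart and on testis alone were chosen after seeing the data.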

Additional observations from a re-analysis of the deposited data

Results flagged for a closer look

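The share of gene counts on the 85 ribosomal protein genes was 1.207% in day 3 testis replicate 1, and its gap to the next of the 6 testis libraries was 0.76 of their whole range, above Dixon's critical value of 0.625. The other 5 testis libraries held 0.784% to 0.886%. This library was the deepest, with 22181395 gene counts, and without the 100 most abundant genes its share was 0.790%, against 0.697% to 0.792% in the other testis libraries. Of 20 groups of values tried this was the 1 that stood apart, and chance alone marks about 1 in 20 such groups.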

How the results depend on the processing

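Over 22 alternatives, 617 of 732 values of named genes kept their direction and their call, 105 kept the direction but lost the call, and 10 reversed. Rpl10l, Rpl39l, Rpl39, Rps4x, Rps18, Rps2, Rpl15 and Rpl22 kept their calls against day 7 under all alternatives run, at both spermatocyte stages. Reversed with plain library sizes were Rpl22l1 (-0.42), Rpl36al (-0.20) and Rps4y2 (-0.72) in leptotene/zygotene and Rps4y2 in pachytene (-0.20). With either library of a spermatocyte stage left out, Rps25 ranged from -0.26 to 6.31 in leptotene/zygotene and from -0.47 to 6.20 in pachytene, and Rpl21 in pachytene from -0.079 to 4.10, each lowest without replicate 1; without both libraries numbered 1 they were -0.15, -0.40 and -0.002. Members called in pachytene against leptotene/zygotene were 7 with plain library sizes (9.86%, against 28.7% of all genes) and 5 with DESeq2 (7.04%, against 27.5%). They were 0 with only these stages fitted (against 6.83%) and 7 with a replicate block within spermatocytes (9.86%, against 37.7%). In day 7 against day 3 they were 3 with DESeq2 (4.23%, against 5.61%) or without a filter (3.61%, against 2.1%). With only these stages they were also 3 (4.35%, against 6.84%). With a block within spermatocytes they were 10 (14.1%, against 12.1%), as with testis alone (14.5%, against 14%). With a library left out, members called ranged from 0 to 1 (day 3 against day 1), 0 to 3 (day 7 against day 3), 25 to 45 (leptotene/zygotene against day 7), 1 to 5 (pachytene against leptotene/zygotene) and 20 to 40 (pachytene against day 7); the lone library left in a stage was assumed to vary like the other stages. Both lowest counts against day 7, 25 and 20, came without day 7 replicate 2, and without day 7 replicate 1 the pachytene count was 24. The share of all genes called also moved with the setting, and the cause of these moves was not tested.

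The replicate numbers mark no shared animal or day in the labels, and replicates of the same number moved together only between the 2 spermatocyte stages. With the replicate block over all stages, 2 members were called in day 7 against day 3 (2.82%, against 1.58% of all genes). The other counts stayed within 1.5 times.

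Against 6 testis libraries, the ratio difference of Rpl10l was 4.36 for pachytene, 3.61 for leptotene/zygotene, 4.95 without the spermatocyte libraries numbered 1 and 3.02 without those numbered 2; that of Rpl39l was 10.56, 10.84, 11.66 and 9.73. Each exact p was 0.0714, the smallest that 2 against 6 allow. The family's share with the summary categories counted was 0.440% at day 1, 0.523% at day 3, 0.412% at day 7, 0.108% in leptotene/zygotene and 0.137% in pachytene. Without the 100 most abundant genes it was 0.781% at day 1, 0.7004% at day 7, 0.305% in leptotene/zygotene and 0.380% in pachytene. Rpl10, Rpl36a, Rpl28 and Rps28, at or near 0 counts, could not be followed in these libraries, and the reason was not tested. Depth was a limit in leptotene/zygotene replicate 1, which had the fewest gene counts (3597360).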
